A study of Homo sapiens with 12 samples.

Results

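The DNA damage checkpoint kinases and adaptors form a set of 10 genes, ATM, ATR, ATRIP, TOPBP1, RAD17, CLSPN, MDC1, CHEK1, CHEK2 and WEE1, which were taken by symbol from the 25365 names of a gene expression table. All 10 symbols were found, 9 were listed above 0 in at least 1 library, and the same 9 reached the mean of 1 FPKM that a gene needed to be tested. FPKM relates the fragments of a gene to the length of its transcript and to the size of the library, so that levels can be set side by side between genes of different length. The values came from RNA-seq of A549, a human lung adenocarcinoma cell line, in 4 groups of 3 biological replicates. Wild-type cells and PARP3-/- cells were each kept for 24 h with vehicle (DMSO) or with 1 µM pyridostatin (PDS), a small molecule that stabilises G-quadruplex (G4) DNA. The PARP3-/- cells were made from A549 with Cas9 and paired guides that remove a short stretch of PARP3, a poly(ADP-ribose) polymerase that takes part in break repair, and were grown from single cells by dilution. How many clones went into the libraries is not given in the sources used here. The design asks how these genes respond to pyridostatin in each genotype, whether their levels differ between genotypes, and whether the response differs between genotypes.

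The genes are spread over the genome, with ATM, CHEK1 and WEE1 on chromosome 11, ATR, ATRIP and TOPBP1 on chromosome 3, CLSPN on chromosome 1, RAD17 on chromosome 5, MDC1 on chromosome 6 and CHEK2 on chromosome 22. The checkpoint halts the cell cycle when DNA is broken or when replication stalls. ATM is the kinase that answers double-strand breaks, with MDC1 as the scaffold that holds its signal on chromatin, and it acts on the effector kinase CHEK2. ATR is the kinase that answers single-stranded DNA at stalled forks. It is brought there by its partner ATRIP, switched on by TOPBP1 at the 9-1-1 clamp that RAD17 helps to load, and passed on through the mediator CLSPN (claspin) to CHEK1. WEE1 holds cyclin-dependent kinases inactive by phosphorylation and so delays entry into mitosis. Most of this signalling runs through protein phosphorylation, which transcript levels do not show.

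The libraries held the transcripts of an epithelial line. All 5 epithelial markers (KRT8, KRT18, KRT19, EPCAM, CDH1) had a mean over the 12 libraries at or above 1 FPKM. None of 4 haematopoietic and none of 4 endothelial markers did, and of 5 fibroblast markers only COL1A1 did. EPCAM and COL1A1 lay near this cut. EPCAM had a mean of 0.99 FPKM in PARP3-/- cells with pyridostatin. COL1A1 had means of 0.69 and 0.87 FPKM in wild-type and of 1.31 and 1.43 FPKM in PARP3-/- cells, with vehicle and with pyridostatin. Steps in the low values placed the libraries at about 21400000 to 30300000 reads, an approximation from 873 genes. PARP3 itself was listed at 3.83, 3.40 and 3.96 FPKM in wild-type cells with vehicle and at 4.92, 4.07 and 4.25 FPKM in PARP3-/- cells with vehicle. With pyridostatin it was at 3.74, 3.57 and 4.05 FPKM in the former and at 4.73, 4.71 and 4.30 FPKM in the latter. PARP3 RNA was thus not lower in the libraries labelled PARP3-/- (difference of 0.683 FPKM with vehicle and 0.792 FPKM with pyridostatin, exact two-sided permutation p = 0.1 for both, the smallest that 3 against 3 libraries can give). The level of a transcript that lacks only a short stretch does not check the knockout, so genotype directions below refer to the labels. Over the mean of both treatments PARP3 was higher by 0.21 on the log2 scale under the knockout label (limma adjusted p = 0.0154).

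The second replicate of wild-type cells with vehicle stood apart from the other 11 libraries, and several checkpoint genes moved with it. Its deviations followed transcript length. The tested genes were split by length into 4 classes of equal size. In the longest class (at least 5.19 kb) its median deviation from the mean of the 12 libraries was -0.20 on the log2 scale, against -0.02 to 0.07 in the others. In the shortest class (at most 2.17 kb) the median was 0.15, against -0.04 to 0.04. Among the checkpoint genes, those with long transcripts were low in this library. Relative to the mean of replicates 1 and 3, log2(FPKM + 1) was lower by 0.54 for ATM (13.1 kb), by 0.39 for ATR (8.25 kb), by 0.36 for TOPBP1 (6.15 kb) and by 0.25 for CLSPN (4.77 kb). The other 5 genes, of 1.97 to 4.58 kb, differed from that mean by at most 0.11. Values without this library are given where its omission changed a call, a direction or the size of a called difference.

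**Figure D1:**
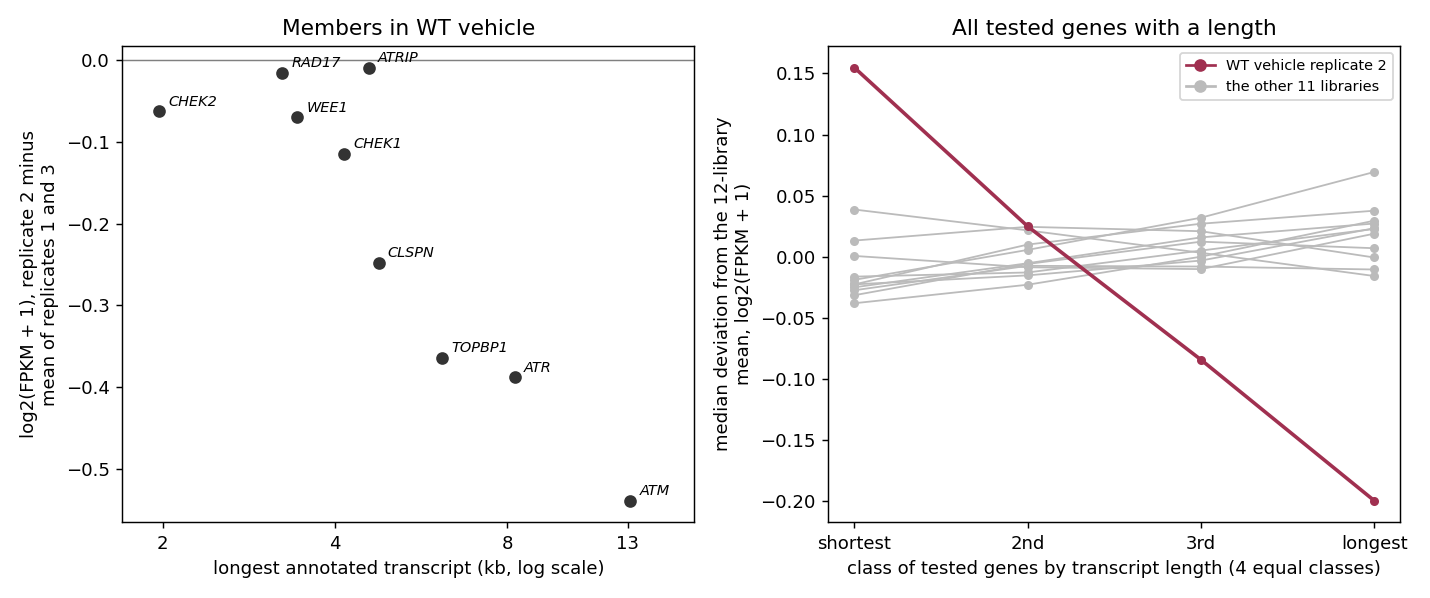
The left panel plots, for the 9 checkpoint genes above 0, the longest annotated transcript (kb, log axis) against the difference between replicate 2 and the mean of replicates 1 and 3 in wild-type cells with vehicle, in log2(FPKM + 1). The right panel gives the median deviation of each of the 12 libraries in 4 equal classes of the tested genes by transcript length; the second wild-type vehicle replicate runs from 0.15 in the shortest to -0.20 in the longest class, while the other lines stay between -0.04 and 0.07.

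In every group TOPBP1 had the highest mean level and ATM the lowest above 0. In wild-type cells with vehicle the means ran from TOPBP1 at 18.8 FPKM through CHEK1 at 16.6, RAD17 at 10.7, WEE1 at 9.38, CHEK2 at 7.28, ATRIP at 6.54, ATR at 6.50 and CLSPN at 5.44 to ATM at 2.51 FPKM. The ranges of TOPBP1 and CHEK1 overlapped in this order, as did those of neighbours from CHEK2 down to CLSPN, while CHEK1, RAD17 and WEE1 were separate from the gene that followed each of them. PARP3-/- cells with vehicle had the same order of means, but there RAD17 and WEE1 overlapped and ATR and CLSPN did not. The wild-type vehicle order rested in part on replicate 2, the library low in long transcripts. In its replicates 1 and 3 TOPBP1 (20.0 and 20.7 FPKM) did not overlap CHEK1 (17.5 and 16.6 FPKM). ATR (6.99 and 7.29 FPKM) was there above ATRIP (6.06 and 7.06 FPKM) in each library and clear of CLSPN (5.86 and 5.73 FPKM). With pyridostatin the mean of ATR stood above those of CHEK2 and ATRIP in both genotypes, with ranges of ATR and CHEK2 that overlapped. The depth gave roughly 270 to 430 reads for CHEK2, the fewest of the 9, and 2300 to 3300 for TOPBP1, the most.

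**Figure D2:**
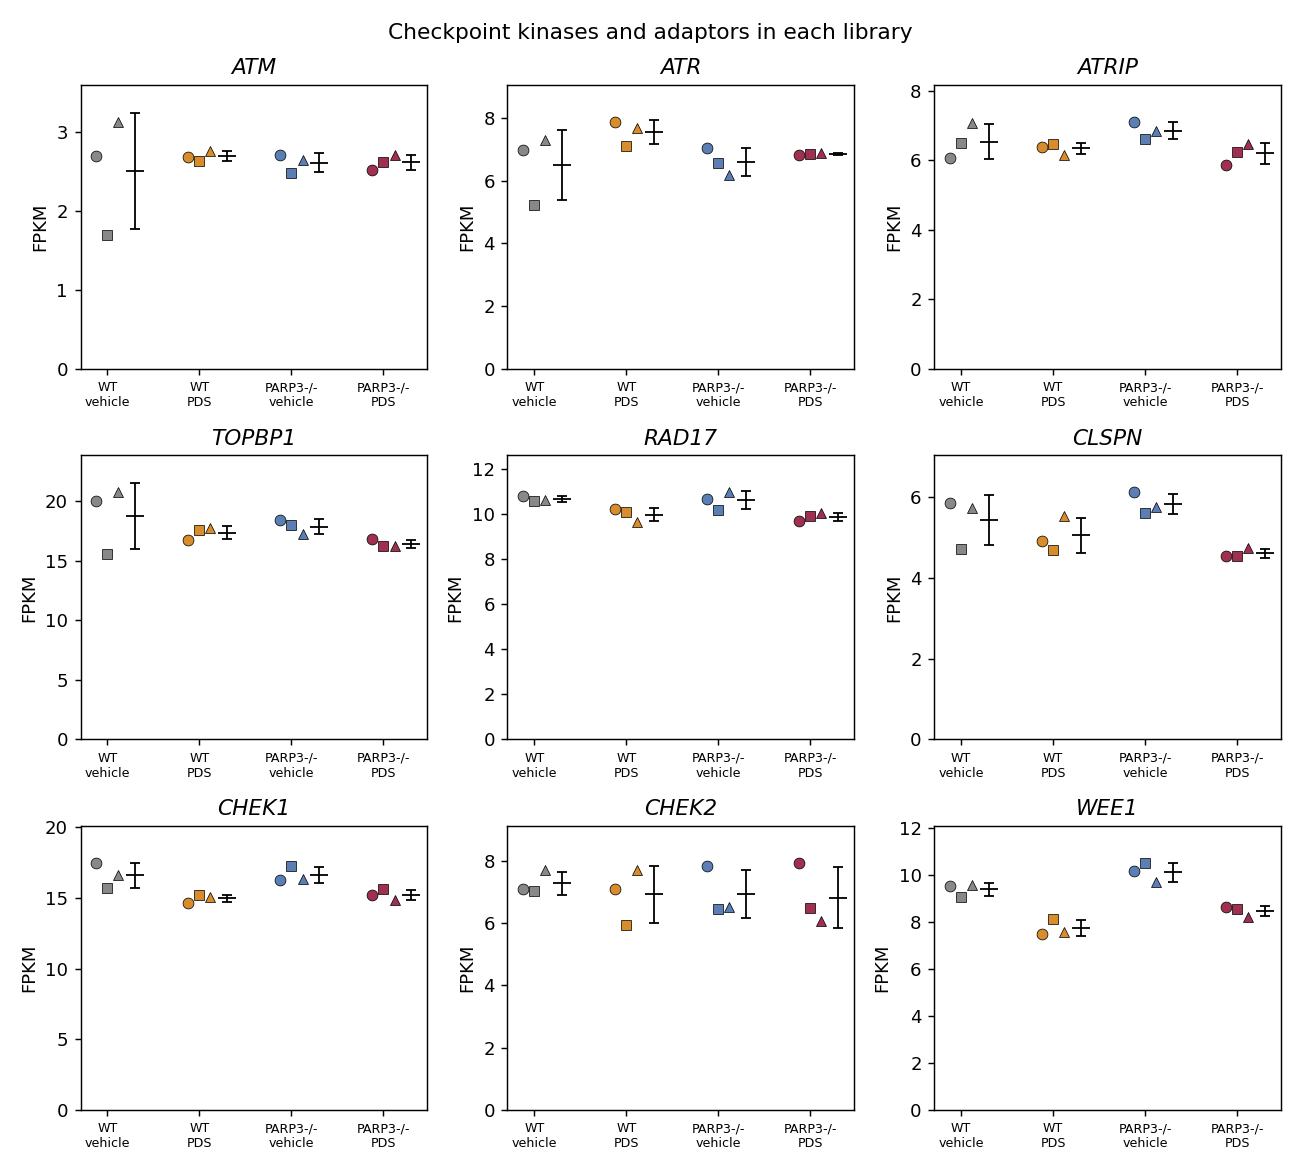
FPKM of 9 checkpoint genes in each of the 12 libraries, by group (WT, wild type; PDS, pyridostatin); circles, squares and triangles are replicates 1, 2 and 3, and the bar to the right of each group is the mean ± SD (n = 3). Both WEE1 groups with pyridostatin lie below both groups with vehicle, and the low square in wild-type vehicle is seen for ATM, ATR, TOPBP1 and CLSPN.

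Pyridostatin lowered WEE1 in both genotypes, and over the mean of both genotypes it also lowered CHEK1, CLSPN and RAD17. Neither of the apical kinases ATM and ATR passed the test. All changes were small, and no checkpoint gene reached an absolute log2 fold change of 1, with 0.28 as the largest size in any pyridostatin comparison. In cells taken in bulk, fewer cells at a stage of the cycle and less RNA per cell cannot be told apart. All changes are differences in log2(FPKM + 1) from limma, and each adjusted p is a Benjamini-Hochberg value over the 11881 tested genes.

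WEE1, the inhibitory kinase of mitotic entry, was at 9.53, 9.05 and 9.55 FPKM in wild-type cells with vehicle and at 7.49, 8.12 and 7.59 FPKM with pyridostatin. The PARP3-/- libraries had 10.1, 10.5 and 9.67 FPKM with vehicle and 8.61, 8.56 and 8.19 FPKM with pyridostatin. No library with pyridostatin reached the lowest vehicle library of either genotype. WEE1 fell by 0.25 on the log2 scale in wild-type cells (SE 0.0440, limma adjusted p = 0.0113) and by 0.23 in PARP3-/- cells (adjusted p = 0.0139). The wild-type call was lost without replicate 1 of the pyridostatin libraries (-0.23, adjusted p = 0.0678), without replicate 3 of them (-0.24, adjusted p = 0.0504) and in a fit of these 6 libraries alone (adjusted p = 0.141). The PARP3-/- call was lost without replicate 1 or 2 with vehicle (adjusted p = 0.0517 and 0.0670) or replicate 3 with pyridostatin (adjusted p = 0.0695). It was the only one of the 9 tested genes called in either comparison, where 1.38% and 2.52% of all tested genes were called lower. Over the mean of both genotypes WEE1 fell by 0.24 (95% interval -0.31 to -0.17, adjusted p = 0.000713), and this call held under every alternative run, the omission of any single library included.

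CHEK1, the effector kinase downstream of ATR, was at 17.5, 15.7 and 16.6 FPKM in wild-type cells with vehicle and at 14.7, 15.2 and 15.0 FPKM with pyridostatin. PARP3-/- cells gave 16.3, 17.3 and 16.4 FPKM with vehicle and 15.2, 15.6 and 14.9 FPKM with pyridostatin. The treated and untreated libraries did not overlap within either genotype. The log2 differences of -0.14 in wild-type cells (adjusted p = 0.102) and of -0.12 in PARP3-/- cells (adjusted p = 0.147) did not pass, while their mean of -0.13 did (SE 0.0305, adjusted p = 0.0181). Without the second wild-type vehicle library CHEK1 passed in wild-type cells (-0.18, adjusted p = 0.0265) and in PARP3-/- cells (adjusted p = 0.0461). The PARP3-/- comparison does not use that library, and its difference stayed at -0.12. Only the spread estimated over all groups and the adjustment changed there. Calls over all tested genes rose from 495 to 710 in wild-type cells and from 661 to 1554 in PARP3-/- cells. The mean call was lost without the second PARP3-/- vehicle library (adjusted p = 0.0503) or the first wild-type pyridostatin library (adjusted p = 0.0523). Over that mean 4 of the 9 tested checkpoint genes were called lower and 0 higher, beside 6.24% and 7.71% of all tested genes. Of the 1657 genes called in all, 55.3% were higher, and 39.9% when the libraries were scaled to a common median, a scaling under which the same 4 checkpoint genes were called.

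CHEK2, the effector kinase downstream of ATM, varied more between replicates than between groups. It was at 7.10, 7.04 and 7.70 FPKM in wild-type cells with vehicle and at 7.11, 5.95 and 7.73 FPKM with pyridostatin. The PARP3-/- values were 7.84, 6.46 and 6.52 FPKM with vehicle and 7.94, 6.48 and 6.07 FPKM with pyridostatin. The groups overlapped in both genotypes, and the mean difference was -0.05 on the log2 scale (95% interval -0.21 to 0.12, adjusted p = 0.731). CHEK2 has several annotated pseudogene copies, among which its reads may have been split.

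CLSPN, the adaptor between ATR and CHEK1, was at 5.86, 4.72 and 5.73 FPKM in wild-type cells with vehicle and at 4.92, 4.70 and 5.54 FPKM with pyridostatin. In PARP3-/- cells it went from 6.12, 5.62 and 5.76 FPKM to 4.55, 4.55 and 4.74 FPKM. The wild-type groups overlapped and the PARP3-/- groups did not. The log2 difference was -0.09 in wild-type cells (95% interval -0.25 to 0.08, adjusted p = 0.559) and -0.28 in PARP3-/- cells (adjusted p = 0.0512), and the mean of -0.19 passed (adjusted p = 0.0397). Without the second wild-type vehicle library the mean difference was -0.23 (adjusted p = 0.00403). The PARP3-/- difference, which does not use that library, stayed at -0.28. It then passed (adjusted p = 0.00849) through the changed spread and adjustment alone. The mean call was lost on omission of any 1 of 10 of the 12 libraries, all but that one and the third wild-type pyridostatin library, with adjusted p from 0.0624 to 0.0897.

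RAD17, which loads the 9-1-1 clamp with the small RFC subunits, had the smallest standard errors of the 9 genes in the model. It was at 10.8, 10.6 and 10.6 FPKM in wild-type cells with vehicle and at 10.2, 10.1 and 9.65 FPKM with pyridostatin. RAD17 in PARP3-/- cells was at 10.7, 10.2 and 10.97 FPKM with vehicle and at 9.69, 9.91 and 10.0 FPKM with pyridostatin. The groups did not overlap in either genotype, although the gap was small. The mean difference of -0.09 on the log2 scale passed narrowly (SE 0.0263, adjusted p = 0.0423), and it was lost when any 1 of 10 of the 12 libraries was omitted, all but the second vehicle library of each genotype (adjusted p from 0.0623 to 0.1004). RAD17 overlaps AK6 and TAF9 in the annotation and has 2 pseudogene copies, so that its value may hold or lack shared reads.

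TOPBP1, the activator of ATR, was at 20.0, 15.6 and 20.7 FPKM in wild-type cells with vehicle and at 16.7, 17.5 and 17.7 FPKM with pyridostatin. The value of 15.6 came from the library that was low in long transcripts. In PARP3-/- cells TOPBP1 was at 18.4, 18.0 and 17.2 FPKM with vehicle and at 16.8, 16.3 and 16.2 FPKM with pyridostatin, without overlap. Over all libraries the mean difference of -0.11 did not pass (95% interval -0.24 to 0.02, adjusted p = 0.262). Without the second wild-type vehicle library it was -0.17 (adjusted p = 0.00229), and the wild-type difference alone was -0.22 (adjusted p = 0.0113). The count of checkpoint genes called lower over the mean of both genotypes was then 5 in place of 4, beside 8.99% of all tested genes.

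ATRIP, the partner that ties ATR to coated single-stranded DNA, was at 6.06, 6.50 and 7.06 FPKM in wild-type cells with vehicle and at 6.39, 6.47 and 6.16 FPKM with pyridostatin. The values in PARP3-/- cells were 7.10, 6.61 and 6.85 FPKM with vehicle and 5.88, 6.24 and 6.47 FPKM with pyridostatin. The wild-type groups overlapped and the PARP3-/- groups did not, and the mean difference of -0.08 on the log2 scale did not pass (adjusted p = 0.188). ATRIP shares its locus with TREX1 and with a read-through transcript of both, and its reads may have been counted for either.

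ATR was at 6.99, 5.22 and 7.29 FPKM in wild-type cells with vehicle and at 7.87, 7.11 and 7.68 FPKM with pyridostatin. PARP3-/- cells gave 7.05, 6.56 and 6.18 FPKM with vehicle and 6.83, 6.86 and 6.89 FPKM with pyridostatin. Both pairs of groups overlapped. The log2 difference was 0.20 in wild-type cells (95% interval -0.01 to 0.41, adjusted p = 0.264) and 0.05 in PARP3-/- cells, and without the second wild-type vehicle library the former was 0.07.

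ATM was at 2.70, 1.69 and 3.13 FPKM in wild-type cells with vehicle and at 2.69, 2.63 and 2.76 FPKM with pyridostatin. PARP3-/- libraries held ATM at 2.71, 2.48 and 2.64 FPKM with vehicle and at 2.52, 2.62 and 2.72 FPKM with pyridostatin. The groups overlapped throughout, and the mean difference was 0.05 on the log2 scale (95% interval -0.14 to 0.24, adjusted p = 0.745). Its sign turned to -0.04 without the second wild-type vehicle library, in which ATM had its lowest value.

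**Figure D3:**
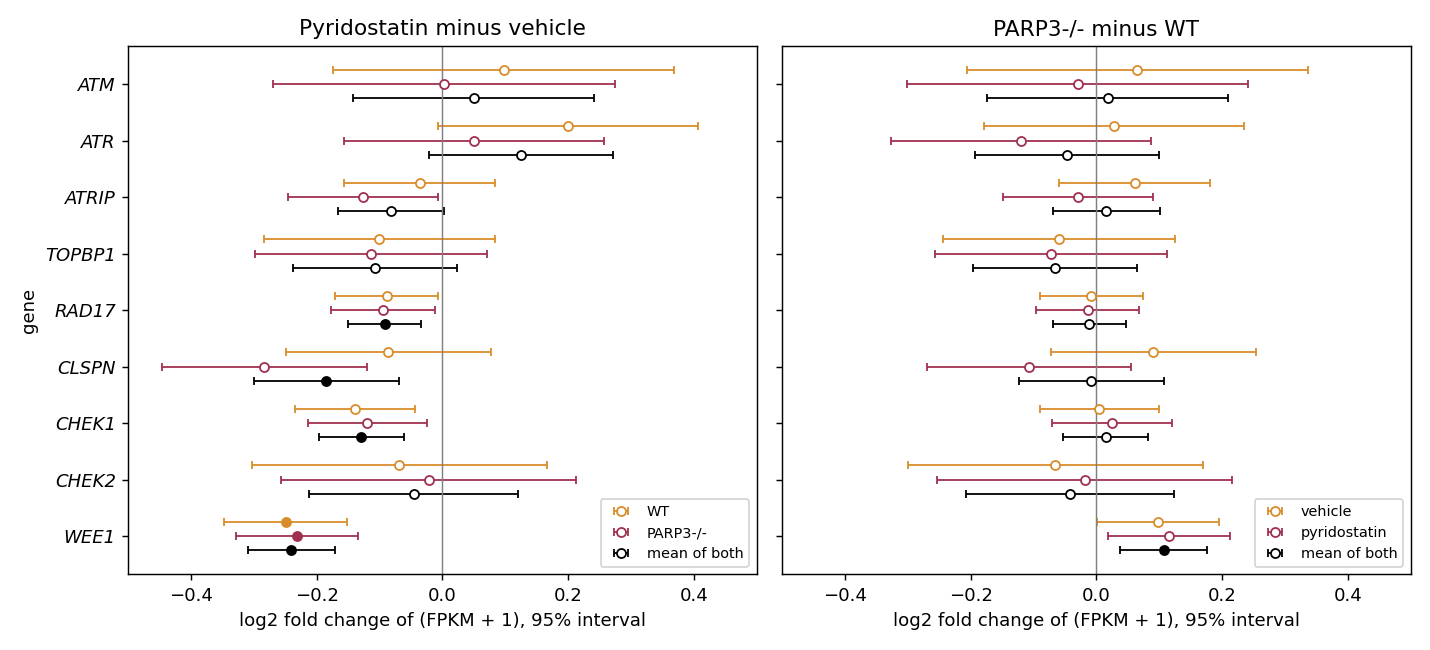
Differences in log2(FPKM + 1) for 9 checkpoint genes with 95% intervals from limma, pyridostatin minus vehicle on the left (wild type, PARP3-/- and the mean of both) and PARP3-/- minus wild type on the right (vehicle, pyridostatin and the mean of both); filled points have an adjusted p under 0.05. WEE1 is filled in all 3 pyridostatin comparisons, CHEK1, CLSPN and RAD17 only for the mean, and WEE1 alone for the genotype mean.

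MDC1, the scaffold of the ATM branch, was listed at 0 FPKM in all 12 libraries, and no fold change was computed. It lies on chromosome 6 within 159 neighbouring protein-coding genes, from ZSCAN23 to ZBTB9 in the gene order of RefSeq's GRCh38.p14, of which 157 were listed at exactly 0 in every library and the other 2 reached at most 0.0182 FPKM. Genes that nearly every cell uses were among those at 0, such as TUBB, BAG6 and DDX39B. Of the other 17536 protein-coding genes 13.4% were at 0 throughout. The flanking genes were measured, ZSCAN12 at a mean of 1.61 FPKM and BAK1 at 10.96 FPKM. The value for MDC1 is therefore given only as listed.

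The promoters of the genes that moved over the mean of both genotypes are shown for the letters they hold, beside that of TOPBP1, which joined them without the second wild-type vehicle library. The sequences are RefSeq's (GRCh38.p14), from 250 bases before to 10 bases after the annotated start, and were matched by symbol. For WEE1 no promoter sequence was available, so none was searched or printed. CHEK1 and RAD17 each have 3 annotated starts, of which the first is shown. Letters were searched on either strand. For the transcription factor E2F they were TTTGGCG, with TTTCCCG as another form, TTTCGCG as a further one and TTTGCCG as the last. The CCAAT box was searched as the letters CCAAT, the cell cycle homology region (CHR) as TTTGAA or, in its other form, as TTCGAA, and G4 as a pattern of 4 runs of at least 3 G with gaps of up to 7 bases. Capitals mark the matches, which did not overlap each other in these stretches.
CLSPN, chr1:35769969-35770228, minus strand, E2F letters at the start and the CCAAT box (as ATTGG) upstream: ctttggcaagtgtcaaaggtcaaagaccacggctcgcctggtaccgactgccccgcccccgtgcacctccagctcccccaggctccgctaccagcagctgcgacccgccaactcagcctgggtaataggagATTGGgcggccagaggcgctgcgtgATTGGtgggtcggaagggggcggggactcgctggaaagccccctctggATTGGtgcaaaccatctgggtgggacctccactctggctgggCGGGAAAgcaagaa
CHEK1, chr11:125625974-125626233, plus strand, CCAAT box as ATTGG: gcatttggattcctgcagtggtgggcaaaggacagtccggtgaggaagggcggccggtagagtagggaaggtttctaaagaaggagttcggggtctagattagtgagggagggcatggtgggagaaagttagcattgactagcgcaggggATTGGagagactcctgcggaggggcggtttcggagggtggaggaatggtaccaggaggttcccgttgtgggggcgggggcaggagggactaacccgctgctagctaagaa
RAD17, chr5:69369568-69369827, plus strand, G4 pattern as runs of C: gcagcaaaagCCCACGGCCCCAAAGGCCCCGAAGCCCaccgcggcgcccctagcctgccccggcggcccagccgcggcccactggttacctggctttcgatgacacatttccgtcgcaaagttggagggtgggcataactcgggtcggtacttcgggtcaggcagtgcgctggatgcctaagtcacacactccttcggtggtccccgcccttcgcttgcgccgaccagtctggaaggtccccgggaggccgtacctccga
TOPBP1, chr3:133661932-133662191, minus strand, G4 pattern as runs of C in 2 places and E2F letters at the start: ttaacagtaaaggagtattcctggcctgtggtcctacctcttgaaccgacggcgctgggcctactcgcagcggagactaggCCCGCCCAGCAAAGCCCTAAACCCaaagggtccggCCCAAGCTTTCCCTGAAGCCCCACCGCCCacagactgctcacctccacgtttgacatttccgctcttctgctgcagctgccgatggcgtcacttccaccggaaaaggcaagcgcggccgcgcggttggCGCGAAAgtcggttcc

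Matches were counted over longer stretches than those printed, from 250 bases before to 50 bases after each annotated start. Shares of tested genes are over the 8645 tested genes that had a promoter sequence. The 9 checkpoint genes with a promoter sequence include MDC1, which was not tested, and leave out WEE1, which was not searched. Among them E2F letters were found in 3 (ATR, CLSPN and TOPBP1), beside 8.68% of all 35097 promoters and 16.8% of tested genes. The CCAAT box was found in 7 of these 9, all but ATR and TOPBP1, beside 34.6% of all promoters and 43.6% of tested genes. The G4 pattern was found in 3 (ATR, RAD17 and TOPBP1), beside 24.99% of promoters and 41.6% of tested genes, and the CHR letters in 3 (ATM, MDC1 and RAD17), beside 16.4% of promoters and 15.2% of tested genes. RAD17 carried its CHR letters 105 and 53 bases before another of its starts. CLSPN, CHEK1 and RAD17 all held the CCAAT box, RAD17 before 2 other starts than the one shown, and they had no other searched letters in common. These matches describe sequence and were not tested for binding.

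The genes around the checkpoint moved with it in part. Of 43 companion genes in 6 lists, all tested, 19 fell and 3 rose over the mean of both genotypes, with a median log2 difference of -0.10 against 0.00 for all tested genes. The 3 that rose were 6.98% of the 43, near the 7.71% of all tested genes called higher, and 6.24% of all were called lower. The examples below were chosen after their values were seen, apart from CDKN1A, MDM2, BTG2 and SESN1, which a rule on adjusted p selected. Of the clamp and its loader, the platform on which TOPBP1 works, 7 of 8 genes fell (median -0.19). The loader subunit RFC4 fell by 0.31 (adjusted p = 0.00402) and the clamp subunit RAD1 by 0.19 (adjusted p = 0.00470), while HUS1 at -0.07 did not pass. Of the factors on forks and single-stranded DNA, 5 of 6 fell (median -0.16), among them the fork protection gene TIMELESS by 0.16 (adjusted p = 0.00330) and all 3 RPA subunits. ETAA1, another activator of ATR, did not pass at -0.06.

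The double-strand break branch changed less often in counts, though this contrast of lists was not itself tested. Of the break sensors and chromatin factors, BRCA1 fell by 0.20 (adjusted p = 0.00477) and H2AFX, the histone variant that ATM marks, by 0.21 (adjusted p = 0.0452), and the other 8 of 10 did not pass (median of the list -0.06). None of the 6 genes of kinases related to ATM and ATR and of the chaperones that fold them passed (median -0.02). Of the targets at mitotic entry 5 of 8 fell (median -0.15), among them the phosphatase CDC25A, which CHEK1 acts against, by 0.23 (adjusted p = 0.00859). CDK1 at -0.05 did not pass.

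Of the 5 effectors and off switches of the pathway 3 rose over the mean, beside 7.71% of all tested genes called higher. The other 2 did not pass, and 1 of the 5 differences was negative. CDKN1A, an inhibitor of cyclin-dependent kinases, was at 87.0 ± 7.27 and 193 ± 3.40 FPKM in wild-type cells with vehicle and with pyridostatin (mean ± SD, n = 3). In PARP3-/- cells it was at 100.1 ± 3.90 and 208 ± 8.67 FPKM. CDKN1A rose by 1.10 on the log2 scale over the mean of both genotypes (adjusted p = 5.37e-07), MDM2, a ubiquitin ligase, rose by 0.84 (adjusted p = 8.36e-06), and PPM1D, a phosphatase that ends the ATM signal, rose by 0.61 (adjusted p = 4.04e-05). MDM4 at 0.04 did not pass. All 19 genes of a p53 target list rose (median 0.53). This list, like the others, was chosen with earlier results of these data known, so its count is a description. BTG2 at 1.14 and SESN1 at 0.92 were named for their small adjusted p in this comparison. Genes of the cycle fell, with 15 of 18 G1/S genes (median -0.25) and 8 of 15 G2/M genes (median -0.16), of which E2F1 at -0.41 and MCM6 at -0.36 were examples. The part of a changed mix of cycle stages in the checkpoint values was not tested.

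Without the second wild-type vehicle library the counts over the mean were 8 of 8 for the clamp and its loader, 5 of 6 for the fork factors, 4 of 10 for the break factors, 0 of 6 for the related kinases, 5 of 8 for the mitotic entry targets and 12 of 15 for the G2/M genes, all lower. Of the 18 G1/S genes 15 were then lower and 1 higher. All tested genes were called lower in 8.99% and higher in 10.2%. Over all libraries, 1 of the 43 companion genes passed lower in wild-type cells alone and 8 in PARP3-/- cells alone, beside 1.38% and 2.52% of all tested genes. These counts were 6 and 16 without the second wild-type vehicle library, beside 2.48% and 6.13%. The same number, 3, passed higher in each of these 4 counts, which is 6.98% of the 43. Of all tested genes 2.79% in wild-type and 3.05% in PARP3-/- cells were called higher with all libraries. Without the second wild-type vehicle library these shares were 3.49% and 6.95%.

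**Figure D4:**
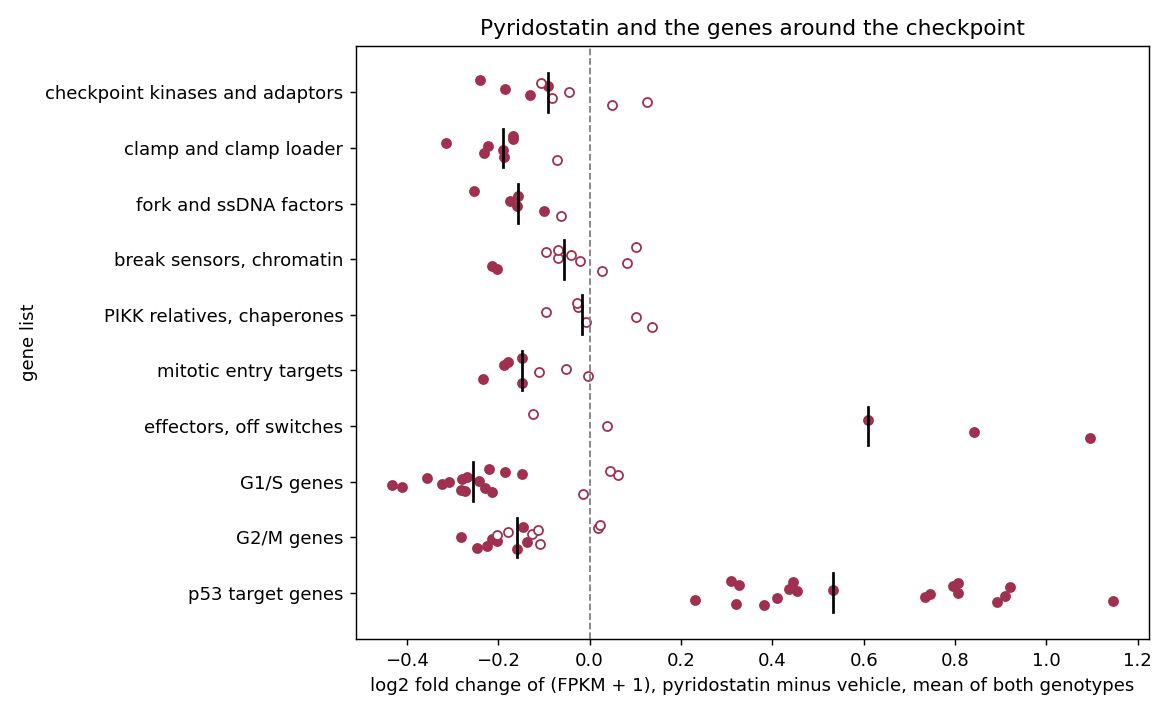
Each point is a gene, placed by its log2(FPKM + 1) difference between pyridostatin and vehicle over the mean of both genotypes; filled points have a limma adjusted p under 0.05, black ticks are list medians and the dashed line is the median of all tested genes. The clamp and loader list is centred at -0.19 and the checkpoint kinases and adaptors at -0.09, while the p53 target list is centred at 0.53.

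The genotypes differed little in the checkpoint genes. With vehicle none of the 9 tested genes was called by limma between the libraries labelled PARP3-/- and wild type, where 9.41% of all tested genes were called, and with pyridostatin none was called either, where 10.9% were. At an unadjusted p under 0.05 there was 1 gene of the 9 in each comparison, WEE1. Of the 11881 tested genes 2564 had such a p with vehicle and 2855 with pyridostatin. WEE1 was higher in the PARP3-/- libraries without overlap under both treatments, by 0.10 with vehicle (adjusted p = 0.229) and by 0.12 with pyridostatin (adjusted p = 0.132). Over the mean of both treatments it was higher by 0.11 (SE 0.0311, adjusted p = 0.0352), the only one of 9 called, beside 12.2% of all tested genes called higher. This call was lost with libraries scaled to a common median (0.07, adjusted p = 0.0931) and with quantile normalization (0.07, adjusted p = 0.106). It was also lost on omission of any 1 of 6 of the 12 libraries, namely PARP3-/- vehicle 1 and 2, wild-type pyridostatin 1 and 3, and PARP3-/- pyridostatin 1 and 2 (0.09 to 0.11, adjusted p from 0.0698 to 0.0928). Of all 2275 genes called over that mean, 63.7% were higher, and 45.7% after scaling to a common median.

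The other genotype differences over the mean ran from -0.07 for TOPBP1 to 0.02 for ATM. ATR did not overlap with pyridostatin, at 7.11 to 7.87 FPKM in wild-type and 6.83 to 6.89 FPKM in PARP3-/- cells, but the log2 difference of -0.12 did not pass (95% interval -0.33 to 0.09). Without the second wild-type vehicle library TOPBP1 was lower by 0.18 with vehicle (limma adjusted p = 0.0133). It was the only one of 9 called, beside 5.07% of all tested genes called lower and 8.88% higher. Over the mean of both treatments TOPBP1 at -0.13 (adjusted p = 0.00580) and ATR at -0.11 (adjusted p = 0.0464) then passed beside WEE1. That fit called 11.3% of all tested genes lower and 15.9% higher. ATM turned from 0.02 to -0.07 (adjusted p = 0.204) and CHEK1 from 0.01 to -0.0043 (adjusted p = 0.922). With all libraries, 2 of the 43 companion genes were called lower over the mean of both treatments and 2 higher. These were 4.65% each, beside 6.95% and 12.2% of all tested genes. The 2 lower were CDK1 at -0.09 (limma adjusted p = 0.0228) and CCNB1 at -0.14 (adjusted p = 0.0341), the kinase and cyclin of mitotic entry. CDKN1A at 0.15 (adjusted p = 0.0230) was among the 2 higher.

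No checkpoint gene responded to pyridostatin differently in the 2 genotypes by the limma interaction, for which 0% of all tested genes were called at the adjusted threshold and 521 had an unadjusted p under 0.05, none of them a checkpoint gene. The largest interaction of the set was that of CLSPN, with a fall that was steeper by 0.20 in PARP3-/- cells (95% interval -0.43 to 0.03, limma adjusted p = 0.999). Without the second wild-type vehicle library it was -0.11 (95% interval -0.29 to 0.06), and the interaction of TOPBP1 went from -0.01 to 0.11 (95% interval -0.01 to 0.23), with no call among all tested genes. For WEE1 the difference between the responses was 0.02 (95% interval -0.12 to 0.16), and for CHEK1 it was 0.02 (95% interval -0.11 to 0.15). These intervals bound how far the responses of both genes could differ between the genotypes.

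Across the 12 libraries the levels of CHEK1 and WEE1 ran most alike among pairs of checkpoint genes, with Pearson r = 0.890 in log2(FPKM + 1), a description of libraries that share 4 groups. ATM and ATR followed at r = 0.832, which was 0.436 without the second wild-type vehicle library. Among all tested genes, the nearest to WEE1 were LMNB1 (r = 0.943), TSEN15 and THAP1, and the nearest to CHEK1 were ACTR3 (r = 0.964), ARL6IP6 and PTGFRN. CLSPN was nearest to PLK4 (r = 0.948), ERCC6L and POLA1, and RAD17 to CHAF1B (r = 0.920), CEP72 and SKA1.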

How the data were processed

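RNA-seq was made from 12 A549 libraries. The authors prepared stranded mRNA libraries, read 75 bases from 1 end and deposited FPKM values per gene and library, without pooling. The submitters' processing notes name bcl2fastq 2.16, STAR 2.5 and Cufflinks, and the builds hg19 and mm9 without their roles. Columns were assigned by title, and all were used. A gene was tested if its mean reached 1 FPKM, on the scale log2(FPKM + 1), which understates the change of low genes, with limma 3.58.1 in R 4.3.3 (1 model of 4 groups, eBayes with trend, no block, Benjamini-Hochberg adjustment, called at an adjusted p under 0.05). The study's own tests used counts, which were not used here. The scripts were tested on simulated data. The members and gene lists were chosen with earlier results of these data known. Further genes of the lists were named as examples after their values were seen. Named by rule were all members, PARP3 and the 3 nearest genes of each called member. The rule also named at most 10 listed genes by the smallest adjusted p for pyridostatin and 4 for genotype. In the genotype comparison this named KRT19 (0.85), EPCAM (-0.50), CDH1 (-0.47) and a gene that is not reported here, and for pyridostatin CDKN1A, BTG2, SESN2, SESN1, PHLDA3, FDXR, MDM2, GDF15, AEN and FAS (0.38 to 1.14). Transcript lengths were taken from GENCODE release 29. Read numbers used the longest transcript and are approximations that can be too high or too low. Alternatives were the pseudocount, the filter, 2 scalings, no trend, a replicate block, separate fits and the omission of each library. Whether counting used the strand is not given in the sources used here.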

Additional observations from a re-analysis of the deposited data

How the results depend on the processing

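WEE1 kept its call over the mean of both genotypes under all alternatives run. The number of checkpoint genes called for pyridostatin in wild-type cells (1) became 2 with a common median and 0 with only the libraries of the comparison, and ran from 0 to 3 when single libraries were omitted. Calls over all tested genes, 495 in the main fit, were 540 and 65 in these fits and 179 to 710 on omission. In PARP3-/- cells the count (1) became 2 with a pseudocount of 0.1, quantile normalization, a common median, a replicate block and only the libraries of the comparison, and ran from 0 to 3 on omission. All tested genes gave 661 calls in the main fit, 589 to 881 in these fits and 254 to 1554 on omission. Over the mean (4) the count of checkpoint genes ran from 1 to 5 on omission, and the count of 5 added TOPBP1. The 1657 calls over all tested genes became 1106 to 2283 on omission. CLSPN was also lost without a filter (adjusted p = 0.0681) and with a mean of at least 5 FPKM (adjusted p = 0.0585). For genotype the count with vehicle (0) ran from 0 to 1 on omission, where the 1118 calls over all tested genes became 741 to 1657. Over the mean of treatments the count (1) was 0 with quantile normalization, 0 with a common median and 0 to 3 on omission. There the 2275 calls over all tested genes became 2368, 2308 and 1764 to 3229. The cause of these shifts was not tested, beyond the fewer samples of each omission.

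Some differences that passed no test changed sign. For pyridostatin in wild-type cells, omission of 1 library gave ATM values of -0.0824 to 0.227, ATRIP values of -0.0830 to 0.0131 and CHEK2 values of -0.141 to 0.0234. In PARP3-/- cells ATM was -0.0276 with quantile normalization and -0.0183 with a common median, and on omission ATM ran from -0.0238 to 0.0222 and CHEK2 from -0.122 to 0.0574. Over the mean, ATM ran from -0.0401 to 0.114 and CHEK2 from -0.0952 to 0.000566. The PARP3 difference with pyridostatin ran from 0.189 to 0.261 and passed without the second wild-type vehicle library (0.22, limma adjusted p = 0.0397).

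The replicate numbers were not taken as pairs, since r of same-numbered libraries ran from -0.12 to 0.216 and was above 0.1 in 2 of 12 pairs. The own number was the closest in 15 of 24 comparisons, where unrelated numbers would give 8, which is a hint from the data of some shared deviation. With the replicate block RAD17 was not called over the mean (adjusted p = 0.0662), and CLSPN was called in PARP3-/- cells. Read numbers are approximate, so counting error was not separated from the spread between replicates.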
